A study of Bos taurus with 8 samples.

Results

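The genes that prepare peptides for MHC class I were followed in bovine embryonic stem cells (bESCs) as the cells were moved from feeders to feeder-free culture. The 10 genes were chosen by name from the raw counts: B2M (the class I light chain), TAP1, TAP2 and TAPBP (peptide transport and loading), ERAP1 (peptide trimming), PSMB8, PSMB9 and PSMB10 (immunoproteasome), and NLRC5 and CIITA (transcriptional regulators). All 10 were among the 32637 genes with values, and all 10 were among the 15744 that passed the filter on low counts, with 14 to 18732 counts per library. Counts are given as CPM (counts per 1000000 counts on genes, after TMM scaling), which is not divided by transcript length, so CPM is compared between libraries, and the gene with the highest CPM of a list need not have the most transcripts.

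Libraries came from bESC lines A, C, D and E, labelled XX, each cultured in 5% O2 on MEF (irradiated mouse embryonic fibroblasts) at passage 15 to 17 and later on vitronectin without feeders at passage 20 to 22, which gave 4 libraries per condition. All lines had been derived on MEF at atmospheric oxygen, in NBFR medium with FGF2 and the WNT inhibitor IWR-1, and the sample titles give 1 medium code for both conditions, whereas the methods add Activin A when feeders are absent. Feeders, substrate and passage changed together and cannot be told apart, nor can Activin A where it was added without feeders alone. Per the methods, reads that MEF RNA can place on the bovine genome were taken out for cells on MEF, a step that could lower counts in that condition alone; its part in the results was not tested. All 8 libraries are labelled batch 1, and other records of sequencing batch were not used here. Each line counted as 1 biological replicate, and the labels do not say which lines came from early and which from full blastocysts. Total counts ranged from 44268717 to 54296425 on MEF and from 49671478 to 51320214 in feeder-free lines A, C and E, while feeder-free line D had 102351560. The embryonic stem cell label was checked against markers of pluripotency: 6 of the 7 listed were in the file, they had counts in all 8 libraries, and POU5F1 had the highest CPM. Their summed level was 3336 to 3800 CPM on MEF and 2913 to 3032 CPM in feeder-free culture, lower in 4 of 4 lines. Of the 6, 4 were lower in 4 of 4 lines, against 20.7 percent of all genes tested. The conditions did not overlap for 3 as lower and 0 as higher, against 8.36 percent and 6.21 percent. On condition alone 4 had an unadjusted P-value under 0.05, against 21.6 percent, and 0 passed in either edgeR fit. The part of this shift in the results was not tested.

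MHC class I molecules show fragments of a cell's own proteins at its surface. The immunoproteasome cuts proteins into peptides, the TAP1 and TAP2 transporter carries them into the endoplasmic reticulum, TAPBP (tapasin) helps load them, and ERAP1 trims them to fit; a heavy chain, B2M and a peptide then form the complex that CD8 T cells read. NLRC5 switches on class I genes, CIITA switches on class II genes, and interferon acts on both, in part through IRF1. Pluripotent stem cells are known for low class I levels.

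Most of these genes had higher mean levels in feeder-free culture than on MEF, and the lines differed widely. On condition alone the log2 fold change was above 0 for 9 genes, and its median over the 10 was 0.70, whereas the median of all genes tested was 0.01. B2M, TAP2, TAPBP and ERAP1 were higher in feeder-free libraries once the line was included as a paired term (replicate block), by 1.62-fold for TAPBP to 3.23-fold for TAP2. Without that term, 0 of the 10 passed. In that fit on condition alone (edgeR's quasi-likelihood test, adjusted P-value under 0.05 and fold change of at least 1.5), 0.724 percent of all genes tested passed as higher and 1.00 percent as lower. TAP2 and TAPBP had an unadjusted P-value under 0.05 there, as did 21.6 percent of all genes, and DESeq2 passed the same 2 genes as higher and 0 as lower, against 4.41 percent and 3.28 percent of all genes. In the paired fit 4 of 10 passed as higher and 0 as lower, where 5.52 percent of all genes passed as higher and 4.53 percent as lower. Higher values in 4 of 4 lines were found for 7 of the 10, against 20.2 percent of all genes, and lower values in 4 of 4 lines for 0, against 20.7 percent. The 10 were chosen with earlier results of these data known, so these shares describe them and are not an independent test.

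**Figure D1:**
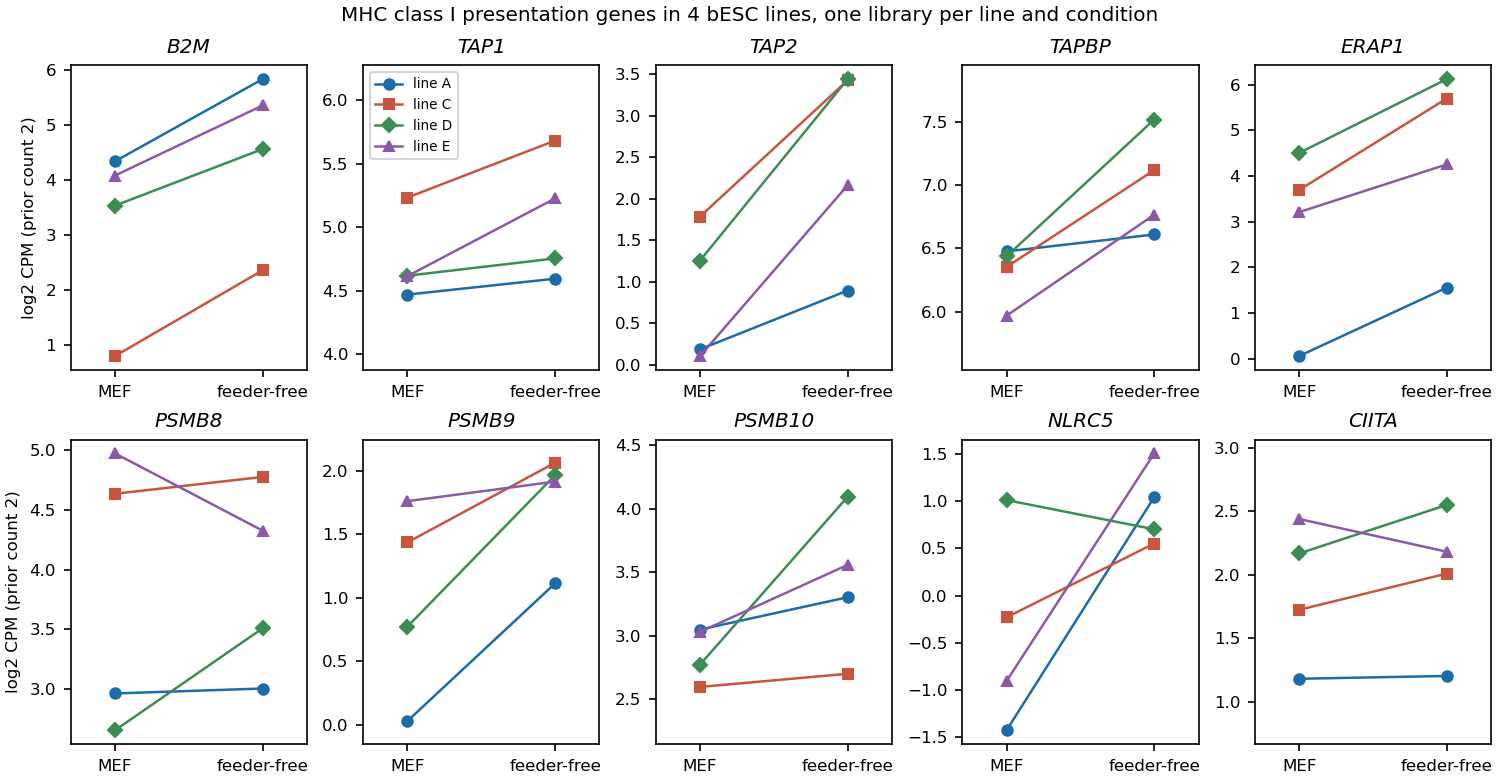
Each panel plots the log2 CPM (prior count of 2) of 1 gene on MEF and in feeder-free culture, with a line joining the 2 libraries of each bESC line; vertical scales differ between panels. B2M and ERAP1 rose in every line from very different starting levels, while PSMB8 and CIITA were lower without feeders in line E, as was NLRC5 in line D.

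B2M, the small invariant chain that every classical class I molecule needs to reach the surface, lies on chromosome 10 (103095506 to 103103791, build ARS-UCD2.0). On MEF it was read at 20.3 CPM in line A, 1.71 CPM in line C, 11.6 CPM in line D and 16.9 CPM in line E. In feeder-free culture it was read at 57.2 CPM in line A, 5.10 CPM in line C, 23.7 CPM in line D and 41.0 CPM in line E. Each line rose, by a log2 ratio of 1.03 to 1.56, but line C stayed below every other library in both conditions, so the conditions overlapped. The mean was 12.6 ± 8.11 (SD, n = 4) CPM on MEF and 31.8 ± 22.4 (SD, n = 4) CPM in feeder-free culture. The log2 fold change was 1.33 on condition alone (standard error, SE, 0.77, edgeR adjusted p = 0.361) and 1.34 in the paired fit (SE 0.14, edgeR adjusted p = 0.000956, paired).

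The class I heavy chains, which bind the peptide, were read at 3 rows on chromosome 23 that carry their symbols: BOLA, BOLA-NC1 and JSP.1. Heavy chains listed only under LOC symbols were not analysed here, so these counts are not the whole heavy chain level. They belong to a family of near-identical and highly variable copies, so their counts are uncertain. BOLA had 360 counts on MEF and 432 in feeder-free culture in line A, 0 and 1 in line C, and 6 and 26 in line D. In the libraries labelled line E it had 9 counts on MEF and 438 in feeder-free culture, a log2 ratio of 5.14, and 438 lay close to the 360 and 432 of line A. Over all genes tested, the feeder-free library of line E deviated from its condition mean together with line E on MEF (r = 0.421) more than with line A on MEF (r = 0.120). Line E on MEF and feeder-free line A had r = 0.249, the highest value between lines, and 0.421 was the lowest within a line. Whether the 2 libraries are the same line was not tested further, and without line E the paired fit still passed B2M, TAP2, TAPBP and ERAP1. BOLA therefore stood at a like level in 3 libraries and near 0 in the other 5, and it did not pass in either fit (log2 fold change 1.93 in the paired one, SE 0.90, adjusted p = 0.170 from edgeR). The paired value depended on which lines were in the fit. It was 0.42 without line E (edgeR adjusted p = 0.724) and 3.62 without line A, where it passed (edgeR adjusted p = 0.0449). BOLA-NC1 had 10 to 36 counts per library and JSP.1 had 2 to 37. Of 16 heavy chain and class I-like genes listed, 15 were in the file and 11 were tested. ULBP21 is named as a member of the family of ligands for the NKG2D receptor. Of the 11, it alone passed in the paired fit, as higher, against 5.52 percent of all genes as higher and 4.53 percent as lower. It rose from 20.3 ± 8.02 (SD, n = 4) CPM to 47.0 ± 19.9 (SD, n = 4) CPM, with a log2 fold change of 1.16 (edgeR adjusted p = 0.00410, paired), and was higher in 4 of 4 lines.

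TAP1 and TAP2, the subunits of the peptide transporter, gave different fold changes. TAP2, on chromosome 23 from 7138820 to 7146579, had 1.10 CPM in line A, 3.41 CPM in line C, 2.35 CPM in line D and 1.04 CPM in line E on MEF. In feeder-free culture it had 1.83, 10.7, 10.8 and 4.44 CPM in the same order. Line A had the smallest rise, and its feeder-free value lay inside the range on MEF. The mean rose from 1.98 ± 1.13 (SD, n = 4) CPM to 6.95 ± 4.53 (SD, n = 4) CPM, and the paired log2 fold change was 1.69 (SE 0.28, edgeR adjusted p = 0.00580, paired). TAP1, on chromosome 23 from 7177596 to 7186308, had 22.1 CPM in line A, 37.6 CPM in line C, 24.5 CPM in line D and 24.5 CPM in line E on MEF. It had 24.1, 51.3, 26.9 and 37.4 CPM in feeder-free culture in that order, higher in 4 of 4 lines. Its paired log2 fold change of 0.33 (SE 0.13, edgeR adjusted p = 0.111, paired) did not pass, and the difference between TAP1 and TAP2 was not tested.

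TAPBP (tapasin), which bridges the transporter and the empty class I molecule, lies on chromosome 23 from 7473471 to 7483390 and spans the microRNA gene MIR2376. It had 89.0 CPM in line A, 81.8 CPM in line C, 86.7 CPM in line D and 62.7 CPM in line E on MEF, and 97.6, 139, 183 and 109 CPM in feeder-free culture in that order. It was the only 1 of the 10 whose conditions did not overlap, as was so in the higher direction for 6.21 percent of all genes and in the lower direction for 8.36 percent. Line A again moved least. TAPBP had a log2 fold change of 0.72 on condition alone (SE 0.21, edgeR adjusted p = 0.0888) and 0.69 in the paired fit (SE 0.15, edgeR adjusted p = 0.0156, paired). Without line C or line D, it no longer passed in the paired fit.

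Other genes of peptide loading and editing were read from a list of 11. In the paired fit 2 of them passed as higher and 0 as lower, against 5.52 percent and 4.53 percent of all genes. HSPA5, the main chaperone of the endoplasmic reticulum, rose from 284 ± 103 (SD, n = 4) CPM to 520 ± 200 (SD, n = 4) CPM, with a paired log2 fold change of 0.88 (edgeR adjusted p = 0.00336, paired). CALR, a chaperone of the loading complex, had a paired log2 fold change of 0.52, short of the fold threshold, while CANX and PDIA3 had -0.02 and 0.25. TAPBPL, a relative of tapasin that edits peptides, had -0.39 and did not pass.

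The trimming enzymes ERAP1 and ERAP2, which shorten peptides inside the endoplasmic reticulum, lie side by side on chromosome 7, 5675 bases apart. ERAP1, from 96168784 to 96298585, was read on MEF at 1.01 CPM in line A, 12.9 CPM in line C, 22.7 CPM in line D and 9.22 CPM in line E. In feeder-free culture it was read at 2.91 CPM in line A, 51.8 CPM in line C, 69.5 CPM in line D and 19.0 CPM in line E. Line A was lowest in both conditions by a wide margin, and every line rose. The log2 fold change was 1.64 on condition alone (SE 0.95, edgeR adjusted p = 0.359) and 1.56 in the paired fit (SE 0.17, edgeR adjusted p = 0.00121, paired). ERAP1 overlaps the annotated gene LOC132345826, and since the strand used in counting is not given in the sources used here, reads of the overlap could not be assigned with certainty.

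ERAP2, from 96304261 to 96357081 and outside the 10 genes, was the only related gene that passed on condition alone. It rose from 3.14, 1.45, 4.00 and 1.86 CPM on MEF in lines A, C, D and E to 12.9, 6.53, 15.1 and 6.31 CPM in feeder-free culture. The conditions did not overlap. Its log2 fold change was 1.97 in both fits, with an adjusted p = 0.0495 on condition alone and an adjusted p = 0.000587 in the paired fit, both from edgeR. On condition alone the call was lost without any 1 library, with adjusted p from 0.0628 to 0.126 from edgeR, with RLE size factors and with no filter on low counts. LNPEP, the related aminopeptidase, had a paired log2 fold change of 0.03 and did not pass.

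**Figure D2:**
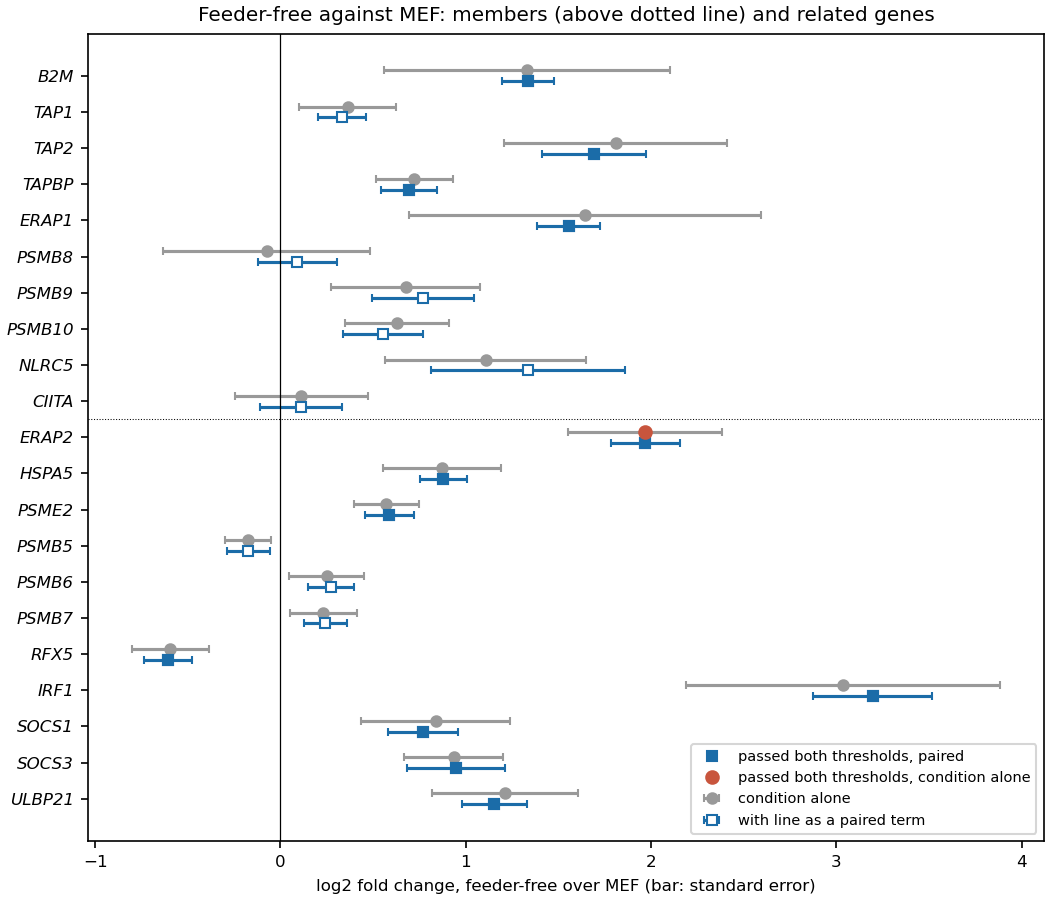
Log2 fold changes of feeder-free over MEF with their standard errors (SE), on condition alone (circles) and with line as a paired term (squares), for the 10 genes above the dotted line and 11 related genes below it; filled blue squares and the red circle passed both thresholds. SEs of B2M and ERAP1 shrank from 0.77 and 0.95 to 0.14 and 0.17 when lines were paired, while their log2 fold changes were 1.34 and 1.56.

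The immunoproteasome subunits replace the standard catalytic subunits of the proteasome, PSMB8 in place of PSMB5, PSMB9 in place of PSMB6 and PSMB10 in place of PSMB7. None of these 6 passed in either edgeR fit, and the 3 immunoproteasome subunits had no unadjusted P-value under 0.05 on condition alone. In edgeR's paired fit the unadjusted P-value was 0.679 for PSMB8, 0.0199 for PSMB9 and 0.0284 for PSMB10. There 5065 of the 15744 genes tested lay under 0.05. PSMB8, on chromosome 23 from 7173032 to 7176410, had 7.77, 24.8, 6.27 and 31.3 CPM on MEF in lines A, C, D and E and 8.00, 27.3, 11.4 and 20.0 CPM in feeder-free culture. Lines C and E stood above lines A and D in both conditions. The log2 fold change of PSMB8 was -0.07 on condition alone (SE 0.56) and 0.09 in the paired fit (SE 0.22, edgeR adjusted p = 0.807).

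PSMB9, on chromosome 23 from 7186453 to 7193346, was higher in 4 of 4 lines, from 2.17 ± 1.05 (SD, n = 4) CPM to 3.47 ± 0.910 (SD, n = 4) CPM, with a paired log2 fold change of 0.77 (SE 0.28, edgeR adjusted p = 0.0866, paired). PSMB10, on chromosome 18 from 35417746 to 35422936, had 7.29 ± 1.08 (SD, n = 4) CPM on MEF and 11.3 ± 4.42 (SD, n = 4) CPM in feeder-free culture. Its feeder-free values were 9.83 CPM in line A, 6.46 CPM in line C, 17.0 CPM in line D and 11.7 CPM in line E, so line D lay highest. The paired log2 fold change of PSMB10 was 0.55 (edgeR adjusted p = 0.108, paired). The gene overlaps LCAT, and as for ERAP1, reads of the overlap could not be assigned with certainty.

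The standard subunits PSMB5, PSMB6 and PSMB7 had paired log2 fold changes of -0.17, 0.27 and 0.24, with adjusted p of 0.343, 0.161 and 0.183 from edgeR. Among 14 genes of peptide supply, PSME2 alone passed in the paired fit, as higher. In that fit 5.52 percent of all genes passed as higher and 4.53 percent as lower. PSME2, a subunit of the proteasome activator PA28 that interferon raises, went from 26.1, 18.8, 17.7 and 26.4 CPM on MEF in lines A, C, D and E to 36.5, 27.2, 33.8 and 34.8 CPM. Its conditions did not overlap, and its paired log2 fold change of 0.59 (edgeR adjusted p = 0.0181, paired) lay just past the fold threshold. The call was lost without line C (edgeR adjusted p = 0.0676) and without line D (edgeR adjusted p = 0.123). PSME1, the other subunit of that activator, had 0.37 and did not pass.

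NLRC5, the main activator of class I genes, had few reads, at 14 to 96 counts on MEF and 76 to 163 in feeder-free culture. It lies on chromosome 18 from 25009893 to 25103235 and spans 2 microRNA genes. On MEF it had 0.336 CPM in line A, 0.817 CPM in line C, 1.98 CPM in line D and 0.498 CPM in line E, and in feeder-free culture 2.03, 1.43, 1.59 and 2.81 CPM in that order. The log2 ratio was 2.47 in line A, 2.41 in line E, 0.78 in line C and -0.31 in line D. NLRC5 did not pass in the paired fit (log2 fold change 1.34, SE 0.52, adjusted p = 0.110 from edgeR). Line D moved this value most: it was 1.94 in the paired fit without line D (edgeR adjusted p = 0.0550), and on condition alone it went from 1.11 to 1.82 without line D on MEF (edgeR adjusted p = 0.0993).

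CIITA, the activator of class II genes, lies on chromosome 25 from 9542385 to 9601549. It had 3.84 ± 1.38 (SD, n = 4) CPM on MEF and 4.15 ± 1.47 (SD, n = 4) CPM in feeder-free culture, with a paired log2 fold change of 0.11 (SE 0.22, edgeR adjusted p = 0.773). Line A was lowest in both conditions, at 2.23 and 2.27 CPM. The class II genes themselves were mostly near 0: of 16 in the file, 2 had no count in any library, 10 were not tested, and the largest count of those 10 was 62. None of the 6 that were tested passed in either edgeR fit, and 0 had an unadjusted P-value under 0.05 on condition alone. BOLA-DRB3, a class II beta chain, had 28 to 587 counts and a paired log2 fold change of 0.42 (edgeR adjusted p = 0.377).

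Among 11 genes of the enhanceosome, the complex that NLRC5 and CIITA act through, and its co-factors, RFX5 alone passed, as lower. That was in the paired fit, where 4.53 percent of all genes passed as lower and 5.52 percent as higher. RFX5, which binds the X box of class I and class II promoters, had 59.2, 89.9, 71.5 and 90.5 CPM on MEF in lines A, C, D and E and 45.1, 71.3, 39.6 and 50.1 CPM in feeder-free culture. It was lower in 4 of 4 lines, with overlapping conditions, and the paired log2 fold change was -0.61 (SE 0.13, edgeR adjusted p = 0.0153, paired). The call was lost without line D (edgeR adjusted p = 0.0928) and without line E, where the log2 fold change of -0.51 fell short of the fold threshold. RFXANK and RFXAP, its partners, had paired log2 fold changes of 0.33 and 0.18 and did not pass. Of the 11, 5 were lower and 1 was higher in 4 of 4 lines, against 20.7 percent and 20.2 percent of all genes. The conditions did not overlap for 3 as lower and 0 as higher, against 8.36 percent and 6.21 percent.

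**Figure D3:**
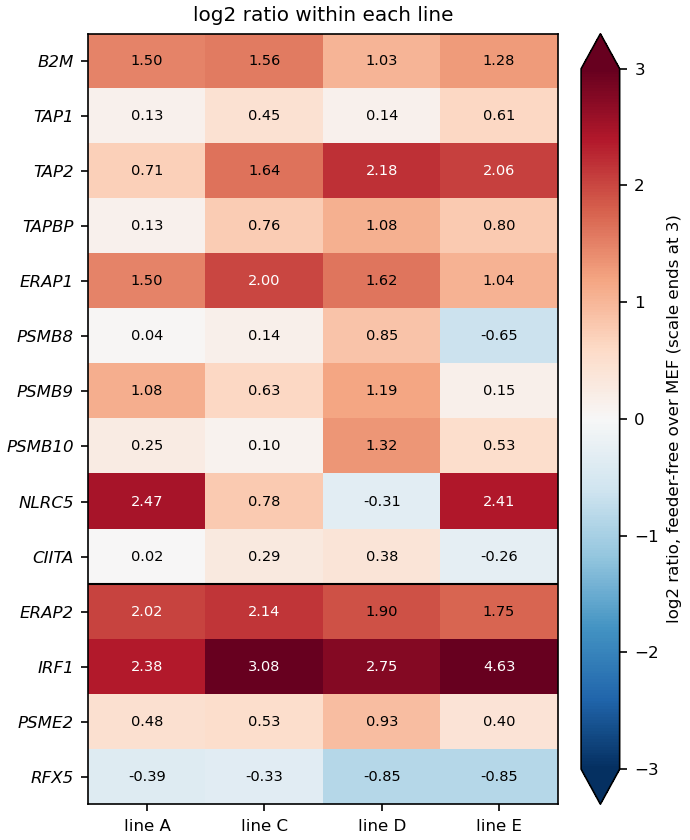
Each cell gives the log2 ratio of feeder-free over MEF within 1 bESC line, for the 10 genes above the black line and 4 related genes below it; red is higher and blue lower in feeder-free culture. IRF1 rose in every line, by 2.38 to 4.63, RFX5 was lower in every line, and line A had the smallest ratios for TAP2 and TAPBP.

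IRF1, a transcription factor that interferon induces and that acts on class I promoters, had the largest paired log2 fold change among the 77 related genes tested. It was read at 0.840 CPM in line A, 2.03 CPM in line C, 6.36 CPM in line D and 0.611 CPM in line E on MEF. In feeder-free culture it was read at 4.53, 17.5, 42.9 and 16.0 CPM in that order. Every line rose, while the conditions overlapped because line A in feeder-free culture lay below line D on MEF. The log2 fold change of IRF1 was 3.04 on condition alone (SE 0.85, edgeR adjusted p = 0.0839) and 3.20 in the paired fit (SE 0.32, edgeR adjusted p = 0.000763, paired), a fold change of 9.16. On condition alone it was 4.11 without line D on MEF (edgeR adjusted p = 0.0821) and 2.36 without feeder-free line D (edgeR adjusted p = 0.200), while the paired fit passed without any 1 line, at 2.80 to 3.40. IRF1, on chromosome 7 from 21938660 to 21946679, overlaps RAD50 in the annotation. As for ERAP1, reads of the overlap could not be assigned with certainty.

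Of 17 genes of interferon signalling listed, 16 were tested. The paired fit passed IRF1, SOCS1 and SOCS3 as higher and none as lower, against 5.52 percent and 4.53 percent of all genes. SOCS1 and SOCS3, which are feedback inhibitors of JAK kinases, had paired log2 fold changes of 0.77 and 0.95, with adjusted p of 0.0248 and 0.0392 from edgeR, and were higher in 4 of 4 lines each. The call of SOCS3 was lost without any 1 line, with edgeR adjusted p from 0.0511 to 0.103, and that of SOCS1 without line C, D or E, with edgeR adjusted p from 0.0656 to 0.108. The receptor chains IFNGR1 and IFNGR2 had 0.27 and -0.13 and did not pass. Of 15 interferon genes in the file, 8 had no count in any library, and none but IFNE, with up to 55 counts, had more than 11 in a library. The 7 genes of NF-κB listed gave 0 calls in both fits and 0 at an unadjusted P-value under 0.05 on condition alone.

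Across all 108 related genes listed, 106 were in the file, 77 were tested, and 7 of the 77 passed as higher and 1 as lower in the paired fit, where 5.52 percent and 4.53 percent of all genes did. Their median log2 fold change was 0.19 on condition alone. DESeq2 on condition alone passed 5 as higher and 0 as lower, where it passed 4.41 percent and 3.28 percent of all genes.

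The lines differed from each other in these genes as well as between conditions. The line term of the paired fit, a test chosen after the values were seen, passed 5 of the 10 genes at an adjusted P-value under 0.05, against 11.8 percent of all genes. These were B2M, TAP1, TAP2, PSMB8 and ERAP1. Line means spanned 4.50 on the log2 CPM scale for ERAP1, from line A as the lowest to line D as the highest (adjusted p = 8.6e-05 from edgeR's line term). They spanned 3.51 for B2M, from line C to line A, with the same adjusted p. For 8 of the 10 genes the span between lines was larger than the paired fold change between conditions. The share of all genes for which this held was not computed, so it is not read as particular to the 10. The order of the lines varied from gene to gene: line A was lowest for ERAP1 and highest for B2M, and line C was lowest for B2M and highest for TAP1, TAP2 and PSMB8.

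**Figure D4:**
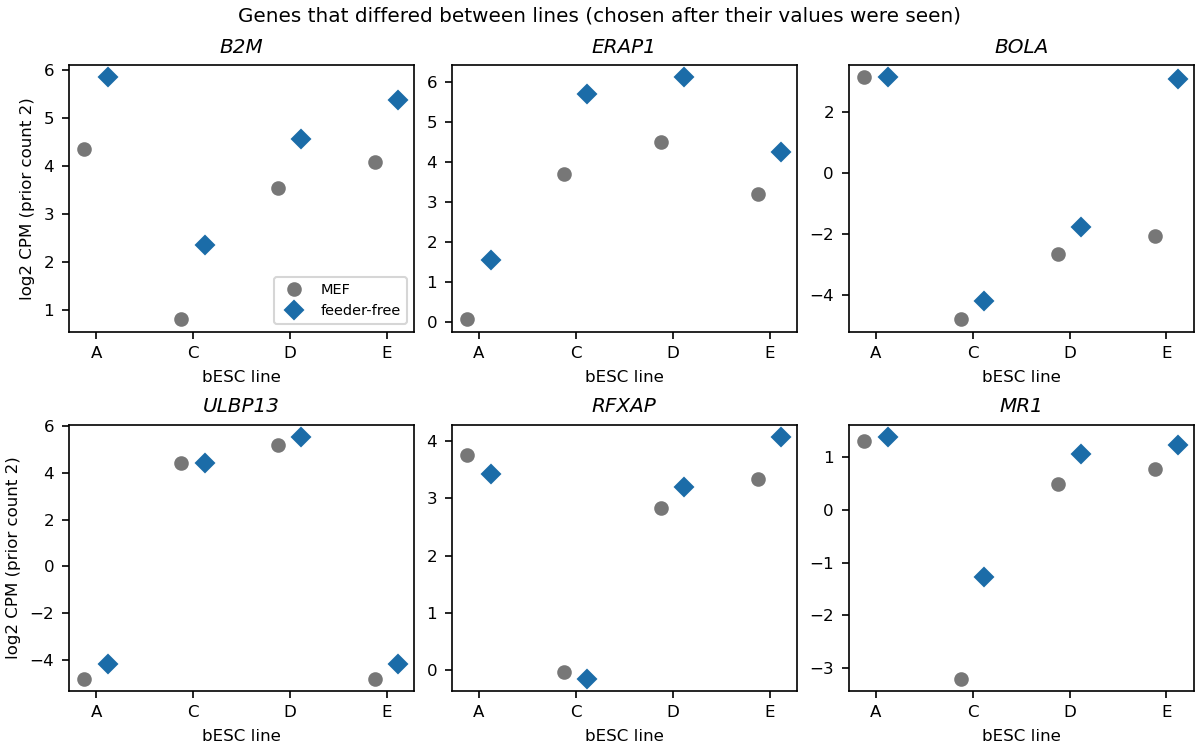
Log2 CPM (prior count of 2) by bESC line on MEF (circles) and in feeder-free culture (diamonds) for 6 genes chosen after their values were seen; vertical scales differ. Line C is lowest for B2M, RFXAP and MR1 in both conditions, line A is lowest for ERAP1, and ULBP13 was read in lines C and D and hardly at all in lines A and E; libraries with 0 counts sit at the floor set by the prior count.

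Among the related genes, chosen after their values were seen, RFXAP and MR1 shared with B2M a low level in line C. RFXAP, a subunit of the RFX complex, had 0.944 and 0.866 CPM in line C on MEF and in feeder-free culture, and 7.12 to 16.9 CPM in the other 6 libraries. It overlaps LOC101904963, with the same limit on reads of the overlap as ERAP1, and its line term had an adjusted p = 0.000623 from edgeR. MR1, a class I-like molecule that presents vitamin metabolites and also pairs with B2M, had 4 and 20 counts in line C and 66 to 211 in the other libraries (adjusted p = 0.0183 from edgeR's line term). ULBP13, of the same family as ULBP21, had 1136 to 4779 counts in lines C and D, and 0 or 1 count in each library of lines A and E. ULBP13 is on an unplaced sequence of ARS-UCD2.0 and has close copies, so reads of a copy could be counted elsewhere.

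TAP2, PSMB8, TAP1 and PSMB9 lie together on chromosome 23, with 144 bases between TAP1 and PSMB9 and 1185 between PSMB8 and TAP1. Of the 4, TAP2 alone passed. LOC618733, from 7153000 to 7169278 between TAP2 and PSMB8 and named after its value was seen, also passed as higher, with a paired log2 fold change of 1.21 (edgeR adjusted p = 0.0336, paired). BOLA-DMA, beyond PSMB9, and its neighbour BRD2 had paired log2 fold changes of -0.17 and -0.04 and did not pass.

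Markers of other cells were read beside these results. The 15 fibroblast genes summed to 1485, 1288, 1071 and 1160 CPM on MEF in lines A, C, D and E and to 780, 1745, 2398 and 1115 CPM in feeder-free culture, with VIM at the highest CPM and no gene at 0 in all libraries. In the paired fit 2 of the 14 tested passed as higher and 1 as lower, where 5.52 percent and 4.53 percent of all genes did. COL1A2 and COL3A1, both collagen chains of fibroblasts, went in opposite directions. COL1A2 had 30 to 253 counts on MEF and 0 to 22 in feeder-free culture, lower in 4 of 4 lines, whereas COL3A1 had 8 to 76 counts on MEF and 72 to 1073 in feeder-free culture, higher in 4 of 4 lines. The 9 leukocyte genes summed to 2.26, 2.09, 3.34 and 2.22 CPM on MEF and to 4.97, 3.11, 5.04 and 3.75 CPM in feeder-free culture, with CD68 at the highest CPM, and 1 of the 4 tested, CSF1R, passed as higher in the paired fit. The leukocyte sum was thus higher in feeder-free culture in 4 of 4 lines, as were B2M, TAP2, TAPBP and ERAP1. The same held for the trophoblast and endothelial sums and for 20.2 percent of all genes tested. PTPRC, which defines leukocytes, had 0 to 12 counts and was at 0 in 5 of the 8 libraries. CDX2, which defines trophoblast, was at 0 in all 8, along with PAG2, CSH2 and TKDP1, while of the 4 trophoblast genes tested 1 passed as higher and 1 as lower in the paired fit. KRT7, with the highest CPM of the 9 listed, was higher in 4 of 4 lines, and GATA2 was lower in 4 of 4 lines, with 34 to 79 counts on MEF and 20 to 31 in feeder-free culture. The summed level of the 9 was 22.1 to 38.2 CPM on MEF and 41.6 to 113.6 CPM in feeder-free culture. The 4 endothelial genes, led by VWF and with none at 0 in all libraries, summed to 6.36, 9.37, 8.85 and 3.58 CPM on MEF and to 6.94, 18.6, 14.7 and 7.60 CPM in feeder-free culture, higher in 4 of 4 lines, and 0 of the 3 tested passed in either edgeR fit (1 at an unadjusted P-value under 0.05 on condition alone). The 5 endoderm genes, led by FOXA2 and with AFP at 0 in all 8 libraries, summed to 5.78, 3.68, 6.65 and 14.0 CPM on MEF and to 3.13, 3.24, 5.19 and 4.73 CPM in feeder-free culture, lower in 4 of 4 lines. The part of these cells in the results was not tested, and fewer cells of a type and less RNA per cell cannot be told apart in bulk RNA.

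The genes most like the 10 as a group, by Pearson correlation of log2 CPM with the mean standardized level of the 10 over 8 libraries, were OLFML3, LOC100297709, KMT5A, STX18 and DNPEP, with r from 0.969 to 0.982. The 8 libraries share lines and conditions, so these values describe likeness only. All 5 were higher in feeder-free culture in 4 of 4 lines. The mean standardized level of the 10 was itself higher in each line, so this direction follows from how the 5 were chosen. DNPEP, an aminopeptidase of the cytosol, went from 106 ± 9.34 (SD, n = 4) CPM to 151 ± 27.4 (SD, n = 4) CPM.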

How the data were processed

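RNA sequencing of 4 bESC lines on MEF and in feeder-free conditions, both in 5% O2, was analysed. The authors deposited raw counts per gene: STAR placed the reads, trimmed by Trimmomatic, on ARS-UCD2.0, Picard and samtools took out optical duplicates and poorly mapped reads, and featureCounts made the counts (Subread 1.6.2 per the submitters' processing notes). For bESCs on MEF, the authors also describe taking out reads that a pure MEF sample placed on the bovine genome, and whether the deposited counts carry this step is not given in the sources used here. Strand, and whether reads or pairs were counted, are not given in the sources used here.

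The table lists 32640 genes, 3 of them (NEB, SYNE1 and DST) without values, which were dropped. Genes were tested with edgeR 4.0.16 in R 4.3.3 (filterByExpr, TMM, glmQLFit, glmQLFTest) on condition alone (the methods name edgeR and no batch correction, and state no model formula), with Benjamini-Hochberg adjustment over 15744 genes, with calls made where the adjusted P-value lay under 0.05 and the fold change was 1.5 or more. Standard errors came from the fold change and its F statistic. Both conditions used the same lines, so line was added as a term (replicate block): deviations from the condition mean correlated at 0.421 to 0.664 within a line and at -0.523 to 0.249 between lines. Log2 CPM used a prior count of 2. The fits were tested on simulated counts, but the outcome is not given here and no result rests on it. Coordinates are from RefSeq, matched by symbol for 30268 genes.

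The 10 genes and the lists were chosen with earlier results of these data known. Named were the 10, every listed related gene called in either fit, PSMB5, PSMB6, PSMB7, IRF1, RFX5 and heavy chains of at least 1 CPM; 1 gene that the rule names is not reported here, and others were given for their role or chosen after their values were seen. PAG1 was dropped from the trophoblast list because the symbol here belongs to another gene. Alternatives were RLE size factors, other filters on low counts, DESeq2 1.42.0, the replicate block, no fold change threshold and each library left out. Libraries within a condition all differed by more than counting noise (chi-square over degrees of freedom of at least 40.8).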

Additional observations from a re-analysis of the deposited data

Results flagged for a closer look

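Among 22 groups of 4 libraries examined (10 genes and the total counts, in 2 conditions), 2 held a library far from the other 3, and chance gives about 1 in 20 groups. The feeder-free library of line A had 1.11 log2 CPM of PSMB9, while lines C, D and E had 1.91 to 2.06. Total counts on genes reached 102351560 in line D without feeders and 49671478 to 51320214 in the other lines.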

How the results depend on the processing

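On condition alone, 114 genes of all tested passed as higher and 158 as lower. These counts were 73 and 97 with no filter on low counts, 695 and 517 with DESeq2, and 869 and 713 with the replicate block, and 199 passed as higher with at least 10 counts in every library. Leaving out each library in turn gave 0 to 259 higher and 0 to 231 lower. The replicate block without line A, C, D or E, chosen after seeing the data, gave 918, 561, 376 and 662 higher and 733, 496, 366 and 497 lower. Among the 10 genes, 0 passed on condition alone, 2 with DESeq2 and 4 with the replicate block, and 4, 3, 3 and 4 passed as higher with the block and without line A, C, D or E. B2M, TAP2 and ERAP1 passed without any 1 line, and TAPBP did not pass without line C or line D. Of the related genes, 1 passed as higher on condition alone, 0 with RLE size factors, 0 with no filter, 5 with DESeq2, 7 with the block, 0 to 0 when each library was left out, and 8, 4, 4 and 5 with the block and without line A, C, D or E. Of the related genes, 1 passed as lower with the block, and 1 each with the block and without line A or line C. PSME2 did not pass with the block without line C or D, RFX5 without line D or E, SOCS1 without line C, D or E, and SOCS3 without any 1 line. BOLA had a log2 fold change of 3.62 with the block and without line A, where it passed, and 0.42 without line E; on condition alone it went from 0.96 to 5.32 without line A on MEF. The log2 fold change of PSMB8, -0.07 on condition alone, was 0.092 with the block, 0.11, 0.088, -0.16 and 0.36 with the block and without line A, C, D or E, and -0.42 to 0.36 when each library was left out. CIITA ranged from -0.10 to 0.32 when each library was left out. The cause was not tested. The median log2 fold change of all genes moved by less than 0.1 under every alternative run. NLRC5 had as few as 14 counts in a library and BOLA has near-identical copies, and the part of either in their values was not tested.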
